A study of Mus musculus with 2 samples.

Results

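The cholesterol efflux and sterol regulation genes described here are 8 mouse genes chosen by symbol, Abca1, Abcg1, Nr1h2, Nr1h3, Mylip, Srebf1, Srebf2 and Ch25h, out of 55536 annotated genes, and all 8 were found in the tables. They were measured by sequencing of total RNA, after removal of ribosomal RNA, from the nuclear fraction of C57BL/6J mouse macrophages grown as primary cells from bone marrow. All cells had Lipid A, the TLR4-activating lipid of bacterial lipopolysaccharide, at 100 ng/ml for 12 h. After 12 h without it they were given Lipid A at 100 ng/ml once more for 120 min. The fraction is called nucleus in one label and nucleoplasmic in another. There was 1 group with 2 replicates that carry the same donor label, made from 1 µg of RNA in replicate 1 and 500 ng in replicate 2, so the amount of RNA and the replicate cannot be told apart. Animal age and sex were not given. Whether the replicates came from separate animals is not stated, so differences between these libraries may be technical. A p-value below sets 1 library against the other and covers counting error only, not the spread between replicates. Unstimulated cells were not analysed here, and the values give levels in this 1 state, not a response to Lipid A.

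Macrophages take up cholesterol with lipoproteins and dying cells and release the excess through the membrane transporters ABCA1 and ABCG1. Oxysterols, oxidised forms of cholesterol, bind the liver X receptors LXRα and LXRβ, which pair with a retinoid X receptor and turn on transporter genes and Mylip. When membrane cholesterol is low, the membrane-bound SREBP factors are cut, enter the nucleus and turn on genes for cholesterol and fatty acid synthesis and for uptake of low-density lipoprotein. The enzyme made from Ch25h, an interferon-inducible gene, produces 25-hydroxycholesterol, which holds SREBP back and can activate the liver X receptors.

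The regulatory sequences below are shown because motifs of the pathway's own factors, and of a miRNA, occur in them: an LXR-type repeat in promoters of Abca1 and Srebf1, a sterol response element in the promoter of Srebf2, and matches to a miRNA that lies inside Srebf2. RefSeq promoters (GRCm38.p6), from 250 bases before to 50 bases after the start, were matched for 7 of the 8 genes, all but Abcg1, with 10 promoters in all. Each promoter is printed along its own gene's strand, with the motif in capitals. The repeat searched, on both strands, was 2 copies of GGTNA with 5 bases between them, which covers the direct repeat with a 4-base gap (DR4) that LXR and its partner bind, and the sterol response element was TCACCCCA.
Abca1, chr4:53159846-53160145, minus strand: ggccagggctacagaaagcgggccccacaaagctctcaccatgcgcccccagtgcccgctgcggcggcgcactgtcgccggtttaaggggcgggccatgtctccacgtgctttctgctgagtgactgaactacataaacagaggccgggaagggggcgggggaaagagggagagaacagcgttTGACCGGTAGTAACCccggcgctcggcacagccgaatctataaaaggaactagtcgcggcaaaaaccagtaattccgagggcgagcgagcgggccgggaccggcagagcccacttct
Srebf1 downstream start, chr11:60210422-60210721, minus strand: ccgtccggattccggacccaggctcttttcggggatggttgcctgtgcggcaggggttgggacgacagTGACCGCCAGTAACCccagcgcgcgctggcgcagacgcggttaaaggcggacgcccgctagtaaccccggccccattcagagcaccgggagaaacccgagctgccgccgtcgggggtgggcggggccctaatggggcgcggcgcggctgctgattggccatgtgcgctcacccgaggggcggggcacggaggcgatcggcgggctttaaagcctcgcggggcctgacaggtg
Srebf1 upstream start, chr11:60220578-60220877, minus strand: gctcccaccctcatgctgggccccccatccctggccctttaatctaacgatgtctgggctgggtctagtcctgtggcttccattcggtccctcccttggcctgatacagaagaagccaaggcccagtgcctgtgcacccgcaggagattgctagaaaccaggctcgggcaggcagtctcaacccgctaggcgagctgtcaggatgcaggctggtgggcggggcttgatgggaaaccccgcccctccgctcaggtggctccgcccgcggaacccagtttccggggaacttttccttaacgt
Srebf2, chr15:82147019-82147318, plus strand: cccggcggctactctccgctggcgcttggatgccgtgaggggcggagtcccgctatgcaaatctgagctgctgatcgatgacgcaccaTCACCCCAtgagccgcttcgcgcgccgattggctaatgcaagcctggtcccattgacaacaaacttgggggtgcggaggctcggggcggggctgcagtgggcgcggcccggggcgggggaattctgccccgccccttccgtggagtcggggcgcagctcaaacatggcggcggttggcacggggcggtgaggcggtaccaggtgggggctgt

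The DR4 repeat occurred in 2 of the 10 member promoters. In Abca1 it began 67 bases before the start and in Srebf1 182 bases before the downstream start, in both cases as its reverse complement. Of 32851 promoters of the same length, 236 held it, a share of 0.718%. The sterol response element occurred in 1 member promoter, that of Srebf2, 162 bases before the start, against 511 of all promoters, or 1.56%. The upstream Srebf1 promoter held neither and is shown for comparison with the downstream one. A match describes the letters in these windows and does not show that a factor was bound there.

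Srebf2 also contains the gene Mir33 in intron 16 of its 18 introns. Its hairpin is 69 bases long (chr15:82198122-82198190, plus strand, GRCm38.p6). The mature miR-33-5p is known to lower ABCA1 in mice, and the mature sequences from RefSeq are given with the seed, bases 2 to 8, in capitals.
mmu-miR-33-5p: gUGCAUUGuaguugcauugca
mmu-miR-33-3p: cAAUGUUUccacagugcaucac
Windows of 30 bases from the transcripts of GENCODE M21 (GRCm38) show each match to the 5p seed, CAATGCA, in capitals.
Abca1-201, chr4:53033783-53033812, minus strand: tattCAATGCAATGCActtCAATGCAacga
Abcg1-201, chr17:31114996-31115025, plus strand: gcaacgCAATGCAacgCAATGCAgacagtg

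Abca1 held 3 matches in a 3156-base untranslated region after the stop codon, beginning at bases 135, 140 and 150 of it, and the matches at 135 and 140 overlap. Abcg1 held 2 in 3703 bases, at bases 717 and 727. The other 6 members had 0. Shares were taken among genes whose region was within 10% of the same length, the member itself included. For Abca1, 3 or more matches occurred in 0.0954% of 1048 genes, a share made by Abca1 alone. For Abcg1, 2 or more occurred in 2.86% of 874 genes. In both transporters the matches lay within a window of 30 bases. The absence in the other 6 members was shared by most genes of their region's length. Any match occurred in 0.969% of such genes for Ch25h, the lowest share, and in 7.34% for Mylip, the highest. Over 21045 genes the share was 7.11%. The Mir33 row itself had 0 counts in both libraries, where its effective length was 0, and the second tool assigned it 2 reads in each, so the level of the precursor was not measurable in these tables.

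Levels are given as TPM (each gene's share of the transcripts in a library, corrected for length) from the authors' gene tables, with expected counts, which are estimated reads per gene. The libraries held 28450309 and 16940220 expected counts on genes in replicates 1 and 2. The 8 genes together took 71543 of them, 0.252% (95% Wilson interval 0.2496 to 0.2533), in replicate 1 and 35584, 0.210% (0.208 to 0.212), in replicate 2. Short structural RNAs took 72.8% and 53.9% of TPM and mitochondrial genes 4.15% and 10.3% of counts, and TPM of any other gene moves with these shares. All 7 macrophage markers were detected in both libraries, led by Lyz2 at 1300 and 1229 TPM, while of 39 markers in 9 lists for other cells only Cd4 (13.9 and 13.5 TPM), Kdr (12.0 and 8.30) and Acp5 (3.80 and 4.53) reached 1 TPM in both. Summed TPM was 2403 and 2482 for the macrophage list and at most 13.9 and 13.5 for any other, and Cd3e, Ncr1, Cd79a, Ly6g and Adipoq were listed at 0 in both. In the second tool Pecam1 (1.45 and 14.4 TPM), Cd3d (1.00 and 5.57) and Alas2 (1.45 and 3.41) also reached 1 TPM in both libraries. The part of other cells in the values was not tested.

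All 8 genes reached 1 TPM in each library and count as detected here, where 39.6% of 22015 protein-coding genes were. Their median was 21.9 TPM in replicate 1 and 25.2 TPM in replicate 2 (23.6 ± 2.39, SD, n = 2), against medians of 6.52 and 9.52 TPM for detected protein-coding genes. In bulk nuclear RNA, fewer cells making a transcript and less RNA per cell cannot be told apart. Abca1 was the highest and Ch25h, near the limit of detection, the lowest in both libraries, with the other 6 genes between 15.1 and 42.1 TPM.

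Abca1 (ENSMUSG00000015243.4, chr4:53030787-53159895, minus strand), whose protein passes cholesterol and phospholipid to lipid-poor apolipoprotein A-I, had 98.7 TPM in replicate 1 and 124.65 TPM in replicate 2 (112 ± 18.4, SD, n = 2). This rested on 48823 and 26249 counts, 68.2% and 73.8% of the counts of all 8 genes, and placed it at rank 248 and 243 among protein-coding genes. Its leading transcript is 10262 bases long, and counts, unlike TPM, are not corrected for length. By TPM Abca1 was 98.7 of the 8 genes' 245.7 in replicate 1 and 124.65 of 278.7 in replicate 2, the highest member in both. The deposited 95% credibility intervals, 96.11 to 97.9 and 117.1 to 120.1 TPM, surround the deposited posterior means of 97.0 and 118.58 TPM and lie below the TPM values, so they are another estimate from the same reads.

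Abcg1 (ENSMUSG00000024030.7, chr17:31057675-31117988, plus strand), which passes cholesterol to high-density lipoprotein, had 41.6 and 42.1 TPM (41.8 ± 0.325), from 10243 and 3860 counts. It was second in both libraries. Abca1 stood 2.37 and 2.96 times above it (2.67 ± 0.418), with intervals apart in both libraries, and the authors' second tool gave 1.86 and 2.01 times. The direction of that difference was thus shared by the libraries and tools, and its size was not.

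Nr1h3 (ENSMUSG00000002108.10, chr2:91184061-91202834, minus strand) encodes LXRα, the receptor abundant in macrophages and liver and itself an LXR target. It had 28.3 and 26.6 TPM (27.4 ± 1.18), from 2194 and 863 counts. Nr1h2 (ENSMUSG00000060601.13, chr7:44549616-44553951, minus strand) encodes LXRβ, found in most tissues, and had 20.7 and 23.9 TPM (22.3 ± 2.26), from 1181 and 518 counts. The TPM ratio of the LXRα gene to the LXRβ gene was 1.37 and 1.11 (1.24 ± 0.178), so on TPM Nr1h3 was the higher in both libraries. The ratio stayed above 1 in the second tool, at 1.42 and 1.27. On the deposited posterior means Nr1h3 was ahead in replicate 1, at 28.17 against 22.1 TPM. There it was behind in replicate 2, at 26.47 against 26.76 TPM. The order is for whole genes: transcripts not typed as protein-coding held 48.8% and 49.8% of Nr1h3 TPM, against 23.8% and 18.7% for Nr1h2. On TPM from the gene and transcript tables, the protein-coding transcripts together were higher for Nr1h2 than for Nr1h3 in both libraries. The deposited intervals were apart in replicate 1, at 26.6 to 29.8 TPM for Nr1h3 and 20.00 to 24.4 TPM for Nr1h2, and overlapped in replicate 2, at 23.9 to 29.2 TPM and 22.7 to 31.0 TPM.

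Mylip (ENSMUSG00000038175.10, chr13:45389742-45412022, plus strand) encodes IDOL, the ubiquitin ligase that marks the low-density lipoprotein receptor for degradation and is an LXR target. It had 15.5 TPM in both libraries (15.50 and 15.54), from 2147 and 926 counts. The TPM ratio of Abcg1 to Mylip was 2.68 and 2.71. In the second tool the same ratio was 2.569 and 2.997, so its closeness between the libraries held for the gene tables only.

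Srebf2 (ENSMUSG00000022463.8, chr15:82147181-82205379, plus strand) encodes SREBP-2, the factor that acts mainly on cholesterol synthesis and low-density lipoprotein uptake, and had 23.0 and 29.1 TPM (26.1 ± 4.29), from 4609 and 2369 counts. Srebf1 (ENSMUSG00000020538.15, chr11:60199089-60222581, minus strand), whose SREBP-1 forms act more on fatty acid synthesis, had 15.1 and 15.5 TPM (15.3 ± 0.311), from 2184 and 765 counts. Srebf2 was higher in both, by 1.53 and 1.87 times (1.70 ± 0.246) and in the second tool by 1.23 and 1.33 times.

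Ch25h (ENSMUSG00000050370.5, chr19:34473778-34475164, minus strand), a gene of 1 exon, had 2.85 TPM in replicate 1 and 1.39 TPM in replicate 2 (2.12 ± 1.03). This rested on 162 counts (95% exact Poisson interval 138 to 189) and 34 counts (23.55 to 47.5), intervals that leave out PCR duplication, which was not marked. It was the lowest member, ranking 6611 and 9009 among 22015 protein-coding genes, and in replicate 2 its deposited interval of 0.922 to 1.81 TPM reached below 1. In the second tool replicate 2 was below 1, at 0.793 TPM, and replicate 1 at 1.19 TPM. The antisense gene Gm26902 overlaps it by 357 bases and had 10 and 8 counts, and without strand in the counting, reads of the 2 could not be told apart.

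**Figure D1:**
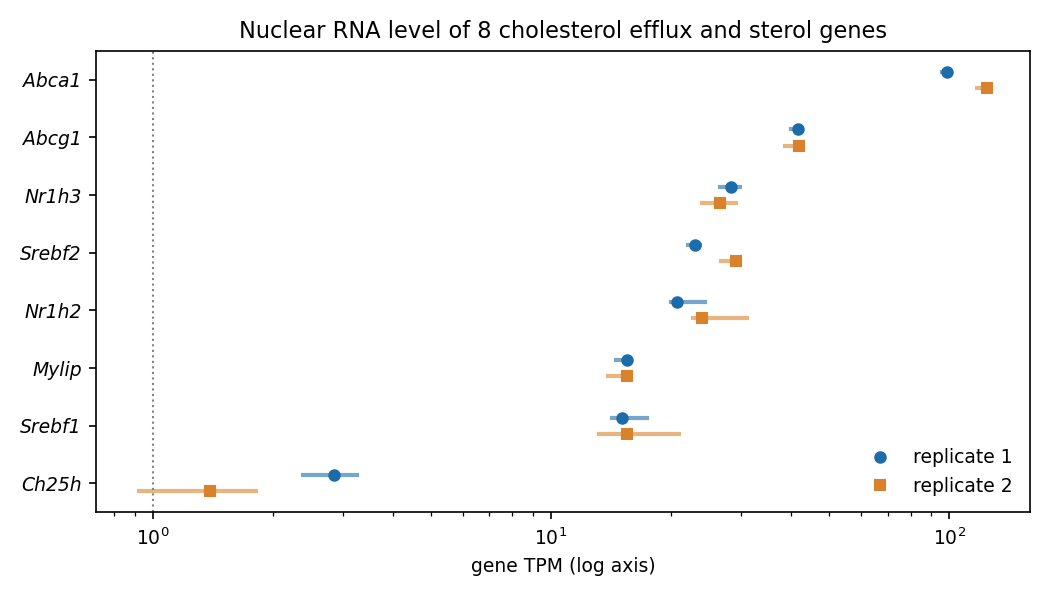
Gene TPM (log axis) of the 8 genes in replicate 1 (circles) and replicate 2 (squares), with the deposited 95% credibility intervals as bars and a dotted line at 1 TPM. Abca1 lies at 98.7 and 124.65 TPM and Ch25h at 2.85 and 1.39 TPM, with the other 6 genes between 15.1 and 42.1 TPM.

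In order of mean level, Abca1, Abcg1, Nr1h3, Srebf2, Nr1h2, Mylip, Srebf1 and Ch25h followed each other. Of the 7 neighbouring steps, 4 were wider than the summed SDs and had separate intervals in both libraries: Abca1 over Abcg1, Abcg1 over Nr1h3, Nr1h2 over Mylip and Srebf1 over Ch25h. The remaining steps were not. Nr1h3 and Srebf2 changed places, with ratios of 1.23 in replicate 1 and 0.914 in replicate 2. Srebf2 and Nr1h2 had overlapping intervals, as did Mylip and Srebf1, which differed by a factor of 1.03 and 1.00 and stood in the opposite order in the second tool.

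The 2 libraries differed for every member once counts were scaled to library size with TMM (trimmed mean of M values, which scales on the bulk of genes). Relative to replicate 1, all 8 were lower in replicate 2 in an exact two-sided binomial test with Benjamini-Hochberg adjustment over 14698 genes, with 0 higher. The same test called 59.9% of all tested genes, 30.2% lower and 29.7% higher, and 35.8% of protein-coding genes were lower. The members' median log2 ratio was -0.70, against 0.01 over all tested genes. This p sets 1 library against another, accounts for read sampling alone, and says nothing of conditions.

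The log2 ratios, replicate 2 over replicate 1, were -0.31 for Abca1, -0.38 for Srebf2, -0.60 for Nr1h2, -0.63 for Mylip, -0.76 for Nr1h3, -0.82 for Abcg1, -0.93 for Srebf1 and -1.65 for Ch25h. By the exact binomial test the adjusted p was 6.11e-11 for Ch25h, the member with the fewest counts, and smaller for the other 7. Set against the spread between replicates, estimated from these same 2 libraries over all tested genes, the picture was narrower. That spread comes from the differences it is set against, so it is not an independent measure. The edgeR common biological coefficient of variation was 0.335, which for normal errors gives a 95% range of 1.34 log2 units on each side of the median, and 7 members lay within it. Ch25h lay outside, as 3.46% of tested genes did on the lower side and 8.84% on either side.

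**Figure D2:**
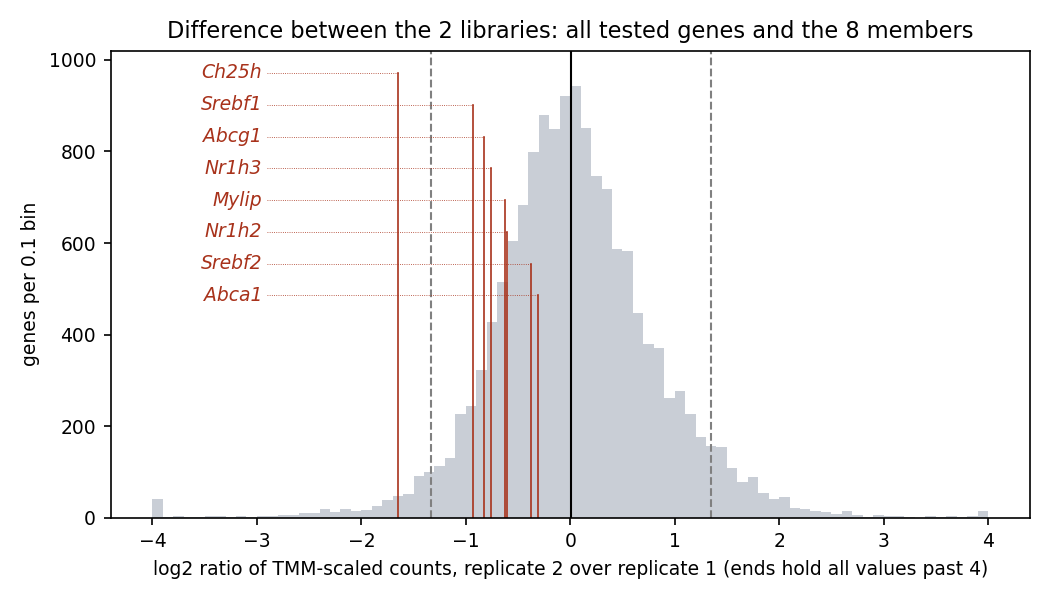
Histogram of the log2 ratio of TMM-scaled counts, replicate 2 over replicate 1, for 14698 genes, with the median (solid line) and the replicate spread of 1.34 log2 units on each side (dashed lines). Red lines mark the 8 genes, all left of the median, from -0.31 for Abca1 to -1.65 for Ch25h, which alone is past the dashed line.

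The scale matters for these values. On TPM as deposited, 6 members were higher in replicate 2 and 2, Nr1h3 and Ch25h, were lower, and the median tested gene was itself higher by 0.43 log2 units on that scale. Relative to that median all 8 were below, from -0.10 for Abca1 and -0.11 for Srebf2 to -1.12 for Ch25h. Macrophage markers moved with the members: 7 of 7 were lower in replicate 2 by the exact binomial test on TMM-scaled counts, with a median log2 ratio of -0.73 and values from -0.16 for Adgre1 to -1.44 for Fcgr1. GC content, taken from each gene's transcript with the highest mean TPM, moved with the ratio too. For Nr1h2 that transcript, Nr1h2-212, held only 5.76% and 9.85% of the gene's counts. The median log2 ratio was 0.63 in the lowest of 10 equal bins of genes by GC and -0.49 in the highest, and set against genes of their own bin 7 of the 8 members were lower, with Srebf2 higher by 0.11 and a median difference of -0.45. The part of GC content, RNA amount or cell make-up in the members' difference was not tested.

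Most members' RNA was assigned to a leading transcript, and the exceptions held retained-intron or short forms. Over the 8 genes the leading transcript's share of the gene's TPM had a median of 74.7% ± 6.52 (SD, n = 2). Abca1-201, with 100% and 99.9%, Mylip-201, with 98% and 99%, and Ch25h-201, the gene's only transcript, took nearly all. These 3 were the members whose RNA fell on 1 coding form, though the second tool put Mylip-201 at 80.7% and 89.8%.

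In Abcg1 the full-length Abcg1-201 took 86.7% and 72.7%. A short coding transcript, Abcg1-205, took 9.28% and 19.5%, and the retained-intron transcript Abcg1-202 took 4.02% and 7.85%. The full-length share was thus the larger in both libraries but differed between them, and the second tool put it at 66.2% and 51.7%. As a share of counts, which does not weight short forms up, it was 97.2% and 93.3%.

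In Nr1h3 the leading transcript was itself one that the annotation types as retained intron. Nr1h3-208 took 38.9% and 31.6%, and the coding transcripts Nr1h3-201 and Nr1h3-204 took 24.0% and 29.8%, and 11.2% and 9.63%. The deposited intervals of Nr1h3-208 and Nr1h3-201 were apart in replicate 1, at 9.646 to 11.77 and 4.742 to 8.355 TPM. In replicate 2 they overlapped, at 6.366 to 9.539 and 4.994 to 9.426 TPM. Together the 3 retained-intron transcripts of the LXRα gene held 48.8% and 49.6% of its TPM (49.2% ± 0.570), with 44.1% and 43.9% in the second tool and 48.7% and 48.3% of counts. Of the members' class shares this one differed little between libraries, tools and scales.

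Nr1h2 was divided among 18 annotated transcripts. Nr1h2-212, a short coding form, led with 21.6% and 31.1% of TPM but only 5.76% and 9.85% of counts. The longer coding forms Nr1h2-201 and Nr1h2-202 had 15.3% and 22.5%, and 9.27% and 15.8%. Another coding form, Nr1h2-203, had 12.9% in replicate 1 and 0% in replicate 2, or 19.6% and 0% of counts, so the assignment among the gene's forms differed between the libraries. Retained-intron forms of the LXRβ gene held 23.8% and 18.7%. By counts Nr1h2-201 was the largest of these, with 23.3% and 38.8%, so which LXRβ transcript led depended on whether length was taken into account.

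For Srebf2, Srebf2-201 took 71.9% and 67.5%, and the remainder was nearly all in the retained-intron forms, 25.2% and 32.5% of TPM. Of these Srebf2-205 took 14.2% and 26.2% and Srebf2-207 took 11.0% and 5.64%. By counts Srebf2-205 took 6.08% and 11.9%, and Srebf2-207 took 6.61% and 3.55%. In replicate 1 the order of the 2 forms thus depended on the scale, and in replicate 2 Srebf2-205 was ahead on both. Gm49502, an annotated gene with no assigned class that lies inside Srebf2 on the same strand, had 225 and 195 counts of its own. By comparison, over 6823 genes with such a transcript the median retained-intron share was 23.4% in replicate 1 and 29.7% in replicate 2. Of the 4 members that have one, 3 were above that median in replicate 1 and 2, Nr1h3 and Srebf2, in replicate 2.

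**Figure D3:**
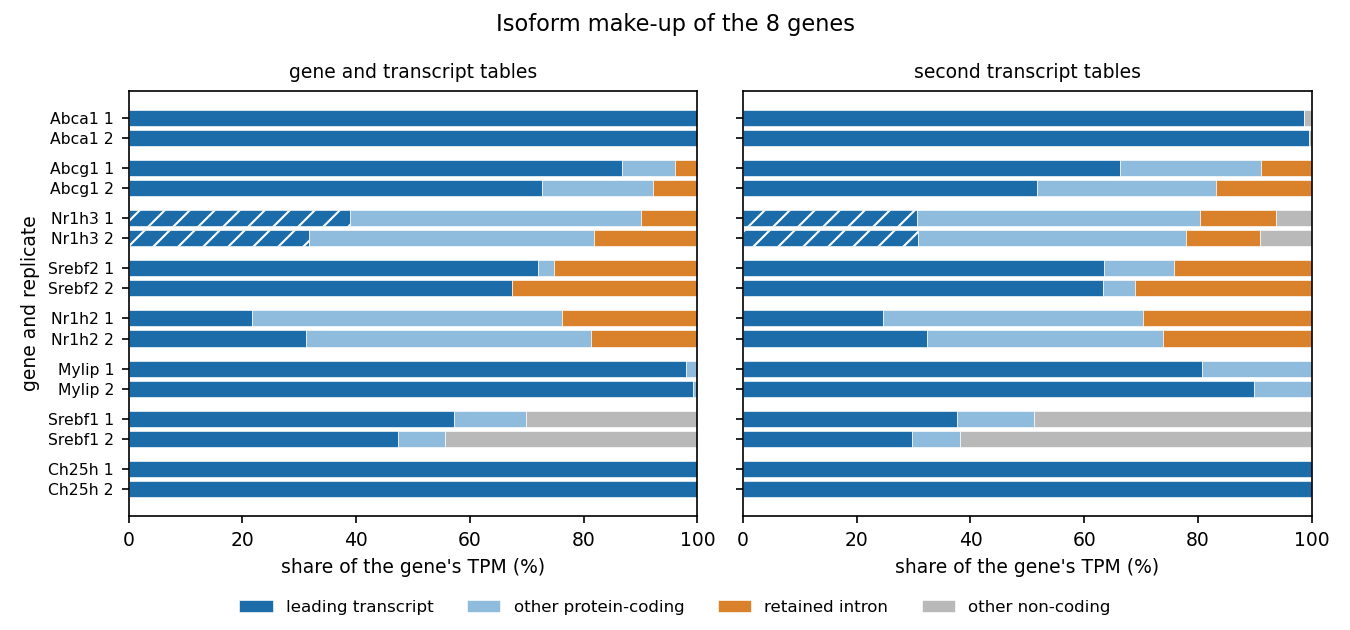
Share of each gene's TPM on its leading transcript, other protein-coding, retained-intron and other non-coding transcripts, by gene and replicate, from the authors' gene and transcript tables (left) and the second transcript tables (right). The hatched bars mark Nr1h3, whose leading transcript, with 38.9% and 31.6%, is a retained-intron form, while Abca1 and Ch25h are filled by 1 transcript in the left panel.

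Srebf1 has alternative starts whose products differ. The upstream start gives SREBP-1a, the stronger activator, known to be abundant in macrophages, and the start 10156 bases downstream gives SREBP-1c, the form that LXR induces in liver. The upstream transcript Srebf1-201 had 8.63 and 7.35 TPM, 57.3% and 47.4% of the gene, from 1730 and 630 counts. The downstream transcripts, Srebf1-207 and Srebf1-208, had 0.640 and 1.28 TPM, 4.25% and 8.25%, from 93.5 and 79.8 counts. By the transcripts assigned to each start, the SREBP-1a start was ahead in both libraries. The TPM ratio was 13.5 and 5.74, and in the second tool 3.49 and 3.55. These ratios rest on whole transcripts, not on reads that mark a start. Srebf1-201 reaches chr11:60199089 and Srebf1-207 ends at 60200463. Downstream-start RNA with the longer end thus has no annotated form of its own, and the size of the ratio as start use was not tested. The downstream promoter is the one with the DR4 repeat printed above.

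Other Srebf1 forms filled the remainder. Transcripts not typed as protein-coding held 30.2% and 44.4% of its TPM but 5.73% and 7.23% of counts, being short. Among them Srebf1-211 took 10.02% and 2.32%, while Srebf1-204, from a start further upstream, took 0% and 11.7%, from 0 and 5.77 counts, and in the second tool 10.2% and 27.4%. The first of these pairs rests on few reads. The leading share by counts was 79.2% and 82.3%. Rai1, on the other strand, overlaps the end of Srebf1 by 109 bases and had 611 and 298 counts.

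**Figure D4:**
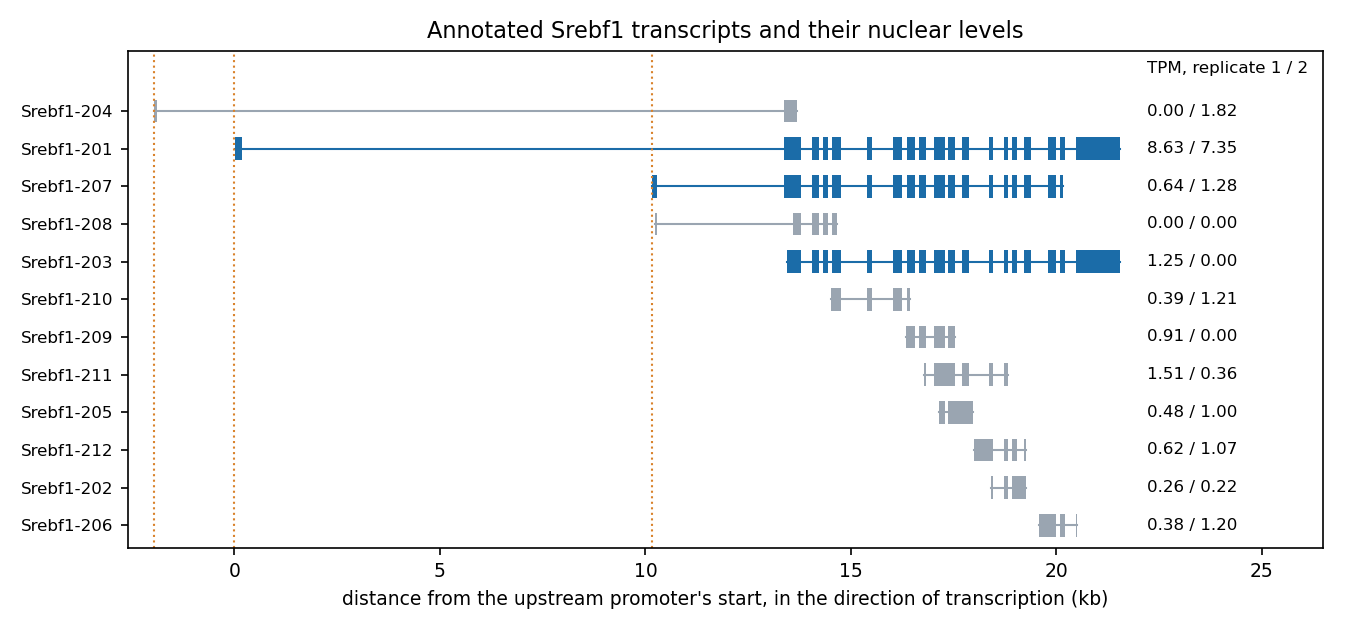
Annotated Srebf1 transcripts drawn by distance from the start of the upstream promoter, in kb along the direction of transcription, with exons as boxes, coding transcripts in blue, non-coding ones in grey and starts as dotted lines. The TPM in replicates 1 and 2 stands at the right: 8.63 and 7.35 for Srebf1-201 from the upstream start, 0.64 and 1.28 for Srebf1-207 from the downstream one.

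The wider pathway was read from 7 lists, counted with the same exact binomial test. Of 19 LXR targets, a list that holds 5 of the members, 14 were detected, with a median of 22.8 and 26.1 TPM, and of 16 tested 12 were lower and 3 higher in replicate 2. Apoe, the lipoprotein component that macrophages secrete, led with 628 and 245 TPM. Lpl, the lipase that frees fatty acids from lipoproteins, had 64.8 and 162 TPM and stood on the other side, being higher in replicate 2. Apoe differed more between libraries than any of the 8 members, by a log2 ratio of -1.90, and the intestinal and liver transporters Abcg5 and Abcg8 were listed at 0 TPM.

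The retinoid X receptor genes stood below the LXR genes. Rxra, a partner of both LXRs, had 4.29 and 5.13 TPM, Rxrb 3.51 and 3.83 TPM, and Rxrg was listed at 0 TPM in both. Of 16 partners and cofactors 15 were detected, at a median of 8.39 and 12.7 TPM. The corepressor gene Ncor1 led with 39.5 and 68.7 TPM, followed by the coactivators Ncoa6 with 17.1 and 31.0 TPM and Ncoa3 with 19.9 and 23.5 TPM. Ncor1 was above both LXR genes in each library, and Rxra and Rxrb were below both. Of 15 tested, 8 were lower and 3 higher in replicate 2.

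Most genes of the SREBP branch were detected. Of 20 cholesterol synthesis genes 18 were detected, at a median of 3.15 and 4.42 TPM, 8 were lower and 4 higher in replicate 2. Among them Msmo1, a sterol demethylation enzyme gene, had 19.4 and 31.0 TPM, and Hmgcs1, an early enzyme gene of the pathway, had 22.3 and 27.5 TPM, near the 23.0 and 29.1 TPM of Srebf2. All 10 genes of SREBP processing were detected, at a median of 7.48 and 13.8 TPM, with 5 lower and 0 higher in replicate 2. The ubiquitin ligase gene Rnf145 led with 39.0 and 46.8 TPM, then Gsk3b, a kinase that marks SREBP for degradation, with 17.5 and 27.4 TPM, and Insig1, which retains SREBP in the endoplasmic reticulum, with 14.8 and 24.96 TPM.

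Uptake, transport and storage genes had the highest median of the lists, 38.1 and 31.6 TPM, with 15 of 17 detected and, of 15 tested, 10 lower and 2 higher in replicate 2. The lipoprotein receptor gene Lrp1 had 163 and 169 TPM, the scavenger receptor gene Msr1 128 and 199 TPM, and the lysosomal cholesterol carrier gene Npc2 184 and 135 TPM, all above Abca1. Of 13 fatty acid synthesis genes 8 were detected, at a median of 2.08 and 4.12 TPM, led by the desaturase gene Scd2 (34.3 and 64.2 TPM), Acly (14.4 and 17.6 TPM) and Fads1 (10.3 and 14.9 TPM), with 3 lower and 5 higher in replicate 2. Of 8 genes for oxysterol enzymes and an oxysterol receptor, 3 were detected and 4 were below 1 TPM in both. These were led by Hsd3b7, a bile acid enzyme, with 8.75 and 9.52 TPM, and Cyp27a1, which makes 27-hydroxycholesterol, with 4.14 and 4.96 TPM, so both exceeded Ch25h. Of the 4 tested, 3 were lower and 1, Gpr183, a receptor for an oxysterol made from 25-hydroxycholesterol, was higher in replicate 2, with 0.800 and 2.05 TPM.

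**Figure D5:**
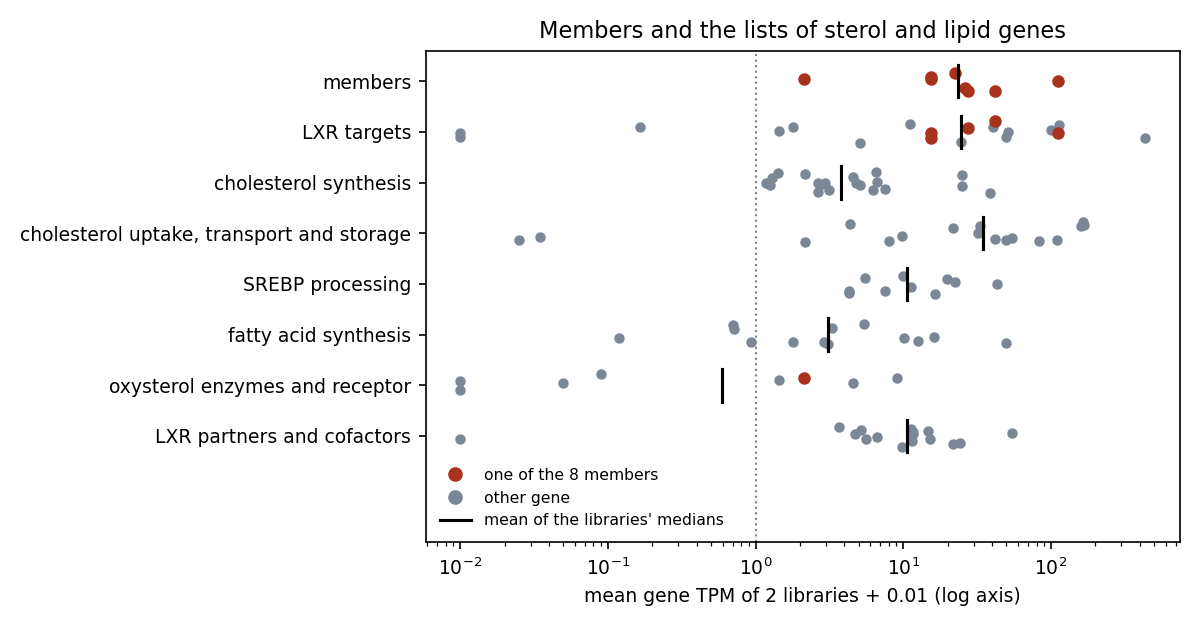
Mean TPM of 2 libraries plus 0.01 (log axis) for each gene of the 8 members and of 7 pathway lists, members in red, with the mean of the libraries' medians as a black bar and a dotted line at 1 TPM. The members' bar is at 23.6 TPM, near that of the LXR targets (24.5) and above those of cholesterol synthesis (3.78) and SREBP processing (10.6).

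Among 95 other listed genes, the one nearest to each member was found by the distance between their log2(TPM + 1) values over the 2 libraries. Nearest were Lipa to Abca1 (0.25), Mertk to Abcg1 (0.10), Nceh1 to Nr1h3 (0.30), Ncoa3 to Nr1h2 (0.06), Ncoa5 to Mylip (0.06) and to Srebf1 (0.05), Hmgcs1 to Srebf2 (0.09) and Soat2 to Ch25h (0.03). With 2 libraries of 1 state such likeness describes level and the difference between the libraries. Soat2, the enzyme gene nearest to Ch25h, had 2.93 and 1.39 TPM. In the second tool Soat2 had 2.20 and 2.31 TPM and Ch25h 1.19 and 0.793 TPM, so this likeness held for the gene tables only.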

How the data were processed

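Ribosomal-RNA-depleted nuclear RNA of 2 replicates of 1 group was analysed. The deposited gene and transcript tables hold expected counts (estimated counts), TPM, posterior mean TPM, bounds of a credibility interval as a signal per gene, and isoform shares in percent, per the file headers; the authors' second transcript tables, called the second tool, hold estimated counts and TPM. The reference was mm10 with GENCODE M21 per the deposited metadata; aligner, quantifier and strand setting are not given in the sources used here.

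Expected counts were rounded to whole numbers. Rows that name no gene, 1.79% of counts in replicate 1 and 0.318% in replicate 2, were left out. The libraries held 28450309 and 16940220 counts on genes, at which 0 counts allows up to 3. Genes that averaged at least 10 counts were compared by a two-sided exact binomial test on TMM-scaled library sizes (threshold 0.05, Benjamini-Hochberg). They were also set against the edgeR common coefficient of variation, estimated from these same 2 libraries (edgeR 4.0.16, R 4.3.3, 1.96 SD of a difference, prior count 0.5). The test was also run on simulated counts whose only spread was read sampling, so that run does not cover the spread between these libraries. Detection meant 1 TPM or more in both libraries. Intervals cover counting error only. All 8 members, the top 3 genes of each pathway list (some are not reported here), transcripts with a mean of 10% or more of a member's TPM and the nearest gene to each member are named; other genes and transcripts named were chosen after their values were seen. The members and lists were chosen with earlier results of these data known. Alternatives were DESeq2 1.42.0 size factors, library size alone, no filter, the second tool, other TPM scalings, detection thresholds of 0.5 and 5 TPM and leaving out a replicate; GC content, Srebf1 starts and the rescaling to protein-coding genes were added after seeing the data. The scripts ran on Python 3.11.15 with scipy 1.17.1, pandas 2.3.3, numpy 2.4.6 and, for figures, matplotlib 3.10.9.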

Additional observations from a re-analysis of the deposited data

How the results depend on the processing

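The members' median level of 23.6 TPM became 14.6 TPM in the second tool, 84.9 TPM after rescaling without short and mitochondrial RNAs, and 120.0 TPM after rescaling over protein-coding genes, an alternative chosen after seeing the data; the libraries singly gave 21.9 to 25.2 TPM. Detection fell to 7 of 8 at a threshold of 5 TPM and in the second tool, each time without Ch25h, and was 8 at 0.5 TPM and in each library. The 8 members lower in replicate 2 stayed 8 with library size alone, DESeq2 size factors, no filter, the second tool's counts and protein-coding genes only, and became 1 when set against the replicate spread. In the order of these settings, 22.05%, 30.61%, 21.09%, 30.86% and 35.83% of all genes tested were lower, against 30.19% with TMM. Of the genes called in either direction, 36.0% were lower with library size alone, against 50.4% with TMM. Library size alone moved the median log2 ratio over all tested genes to 0.17. The second tool called 14916 genes of 23709, against 8801 of 14698. On log2(TPM + 1) as deposited, 6 ratios turned round: 0.33 for Abca1, 0.32 for Srebf2, 0.20 for Nr1h2, 0.0389 for Srebf1, 0.0155 for Abcg1 and 0.0035 for Mylip, where the median of all genes is 0.43. The median share of the leading transcript, 74.7%, was 61.2% in the second tool, 90.2% by counts and 70.1% to 79.3% with 1 library. The median share of transcripts not typed as protein-coding, 13.6%, was 19.0% in the second tool, 3.80% by counts and 13.3% to 13.9% with 1 library. Of the members' own levels, ratios and isoform shares recomputed with both libraries, 78 kept their call or stayed within the replicate SD, 48 did not and 6 are the reversals above. The cause of these shifts was not tested. No paired analysis was possible because there is only 1 group. With 2 libraries of unequal depth, Ch25h, at 34 counts in replicate 2, is the member whose level depth limits most.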
